A study of Mus musculus with 28 samples.

Results

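Skin from 16 of the 24 mice of a study of chronic graft-versus-host disease (19 of its 28 arrays) gave the measure of how far loss of Il4ra in the recipient changed the response to allogeneic cells. The measure is a difference of differences. The donor effect, allogeneic minus syngeneic, was taken in recipients lacking Rag2 and Il4ra, and the same donor effect in recipients lacking only Rag2 was subtracted from it. A negative change therefore means a smaller rise, or a larger fall, with allogeneic cells when Il4ra was missing. Allogeneic (allo) Il4ra-deficient mice were 4 rag2-/- IL4Ra-/- recipients of B10.D2 splenocytes, and syngeneic (syn) Il4ra-deficient mice were 3 such recipients of balb/c splenocytes. The Rag2-only recipients were rag2-/- mice, 5 given B10.D2 cells (allo) and 4 given balb/c cells (syn). The other 8 mice were rag2-/- IL13-/- recipients, 4 given B10.D2 cells and 4 given balb/c cells (9 arrays); they entered the limma fit, where all groups share 1 estimate of spread, and were used to choose genes. All recipients were on a balb background and lacked Rag2, and skin was taken 2 weeks after transfer, per the labels. Because Rag2 is required for T and B cells to form, the recipients make none of their own, and donor cells, which carry no Il4ra label, are the source of such cells. No source used here states the age or sex of the mice. Mouse 5718 is labelled IL14Ra-/- and was taken as Il4ra-deficient, since IL4Ra is the one receptor chain that the series design names; the reading is not certain, and without this mouse 0 genes passed the test for a changed donor effect.

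IL-4 receptor alpha is the chain that IL-4 and IL-13 receptors have in common. It pairs with the common gamma chain to bind IL-4, or with Il13ra1 to bind either cytokine, and signals through Jak kinases and the transcription factor Stat6. In skin and other tissues this route is known for alternative activation of macrophages, for chemokines that attract monocytes and eosinophils, and for matrix deposition. In transfers of B10.D2 cells into balb/c hosts, donor T cells and host and donor monocytes enter the skin, and thickening of the dermis is known to follow.

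Each value is the log2 ratio of skin RNA to a reference RNA pooled from mouse cell lines, with the log base and direction read from the values themselves, so a difference of 1 is a 2-fold difference and a ratio of 0 means equal signal. Arrays of the same mouse were averaged. On every array some ratios stood at exactly 0 and were treated as not measured, 5.02% to 29.9% of probes in allo and 7.13% to 36.8% in syn Il4ra-deficient mice, against 5.87% to 34.6% in allo and 18% to 34% in syn Rag2-only mice. Of the genes used to check direction and tissue, 15 of 15 epidermal genes lay above 0 (median 5.30), against 2 of 14 genes of dividing and embryonic cells (median -2.20). The mouse numbers fall into series 45, 57 and 61, whose meaning the labels do not state. Series 57 holds mice of all 4 groups, series 45 only Il4ra-deficient and series 61 only Rag2-only mice.

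The Il4ra probe gave lower ratios in Il4ra-deficient recipients under both donors. In allo Il4ra-deficient mice the ratios were 0.72, 0.50, 0.39 and 0.85, and in syn Il4ra-deficient mice -0.32, 0.07 and -0.22. The allo Rag2-only mice had 1.69, 3.27, 1.80, 1.70 and 1.96, and the syn Rag2-only mice 0.41, 0.92, 0.33 and 1.42. Neither the allo nor the syn recipients overlapped, and mouse 5718 (0.39) was the lowest of the allo Il4ra-deficient mice. The allo difference was -1.47 (SE 0.38, limma adjusted p = 0.0731) and the syn difference -0.93 (SE 0.43, limma adjusted p = 0.9995). With allo cells the Il4ra difference in Il4ra-deficient recipients was 0.77 (SE 0.43, limma adjusted p = 0.287), and in Rag2-only recipients Il4ra rose by 1.32 (SE 0.38, limma adjusted p = 0.014). The change between them was -0.54 (95% interval -1.75 to 0.66). Where the probe lies relative to the deleted part of the gene is unknown, and donor cells carry an intact gene, so these values check the genotype only in part.

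No single gene passed the test for a changed donor effect. Of 14783 genes measured in at least 2 mice of every group, 0 (0%) had a limma adjusted p under 0.05, and the smallest adjusted p was 0.743. At an unadjusted p under 0.05 there were 730 genes (4.94%), 354 higher (2.39%) and 376 lower (2.54%). Precision was limited by the number of mice: the median standard error of the change was 0.32, and the median 95% interval reached 0.667 to either side. Changes of up to about that size in a typical gene could not be told from no change, even before adjustment. After adjustment over all genes, larger estimates did not pass either, such as -2.36 for Clec4d.

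The donor effect itself passed for many genes in both recipients. With allo cells 1362 genes changed in Il4ra-deficient recipients (9.21%), 873 higher (5.91%) and 489 lower (3.31%). In Rag2-only recipients 4175 changed (28.2%), 1864 higher (12.6%) and 2311 lower (15.6%). These counts rest on 4 against 3 and on 5 against 4 mice, and they do not test a difference between recipients. In bulk skin, fewer cells of a type and less RNA per cell cannot be told apart. Among allo mice, 119 genes (0.805%) differed between Il4ra-deficient and Rag2-only recipients, 40 higher (0.271%) and 79 lower (0.534%). Among syn mice 0 genes (0%) passed, and 430 (2.91%) lay under an unadjusted p of 0.05. With the number series as a block the count among allo mice was 3, and leaving out single mice put it between 6 (without 5720) and 129. Of the genes described below 28 passed among allo mice, none of the 28 did so with the block, and 16 did so within series 57 alone. Their signs held in every setting run.

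Genes that rose with allo cells in a further genotype had, for the most part, smaller donor effects without Il4ra. In recipients lacking Rag2 and Il13, which enter neither side of the comparison, 1359 genes rose with allo cells (9.19%), 824 of them at least 2-fold. Over these 824 genes the median donor effect was 1.18 in Il4ra-deficient and 1.56 in Rag2-only recipients. The median change was -0.37, with quartiles at -0.71 and -0.04, and 643 of the genes (78%) lay below 0. Over all 14783 genes the median change was 0.02, and 46.7% lay below 0. Of the 824, 136 (16.5%) were lower and 3 (0.364%) higher at an unadjusted p under 0.05, against 2.54% and 2.39% of all genes.

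The direction of the donor effect was shared. It was above 0 for 785 of the 824 genes in Il4ra-deficient and for 800 in Rag2-only recipients. Across these genes, which are not independent replicates, the donor effects correlated with r = 0.862. The difference lay mostly between allo mice: the median difference between Il4ra-deficient and Rag2-only recipients was -0.45 among allo mice and -0.11 among syn mice. In 278 of the 783 genes measured in all 9 allo mice (35.5%), every allo Il4ra-deficient mouse lay below every allo Rag2-only mouse, against 652 of 12853 genes overall (5.07%). The opposite separation occurred in 7 of the 783 (0.894%), against 634 overall (4.93%).

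The values of single mice show the same order. Over the 733 of these genes measured in all 16 mice, the median level was 1.14, 1.04, 0.95 and 1.02 in the allo Il4ra-deficient mice and -0.04, -0.11 and -0.16 in the syn Il4ra-deficient mice. It was 1.57, 1.83, 1.46, 1.32 and 1.64 in the allo Rag2-only mice and 0.06, -0.01, 0.01 and -0.01 in the syn Rag2-only mice. All 4 allo Il4ra-deficient mice thus lay below all 5 allo Rag2-only mice, and the syn groups lay close together. The group means were 1.04 ± 0.08 (SD, n = 4) in allo Il4ra-deficient and 1.56 ± 0.19 (SD, n = 5) in allo Rag2-only mice. Within series 57, the 2 allo Il4ra-deficient mice (0.95 and 1.02) lay below the 2 allo Rag2-only mice (1.57 and 1.83). Over the members of the 824 with values there, the median change within series 57 was -0.46.

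**Figure D1:**
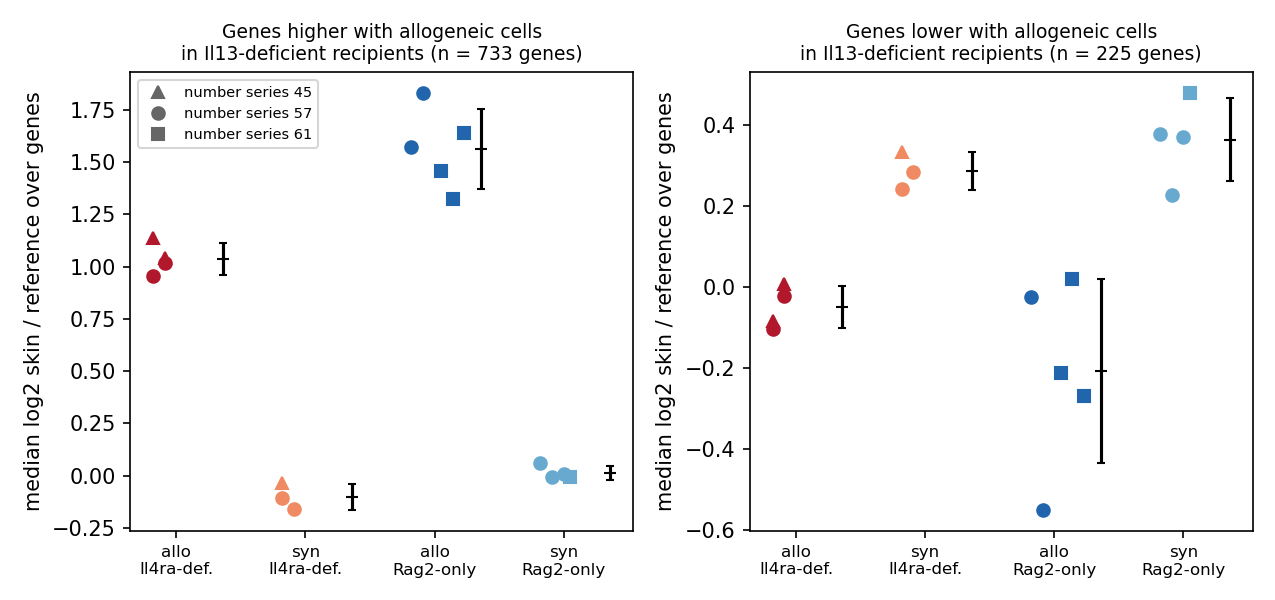
Median log2 ratio of skin to reference in each mouse over the genes higher (left, 733 genes) or lower (right, 225 genes) with allo cells in Il13-deficient recipients; symbols mark the number series, and bars give the group mean ± SD. On the left the allo Il4ra-deficient mice (0.95 to 1.14) sit below the allo Rag2-only mice (1.32 to 1.83), and on the right the allo groups overlap.

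**Figure D2:**
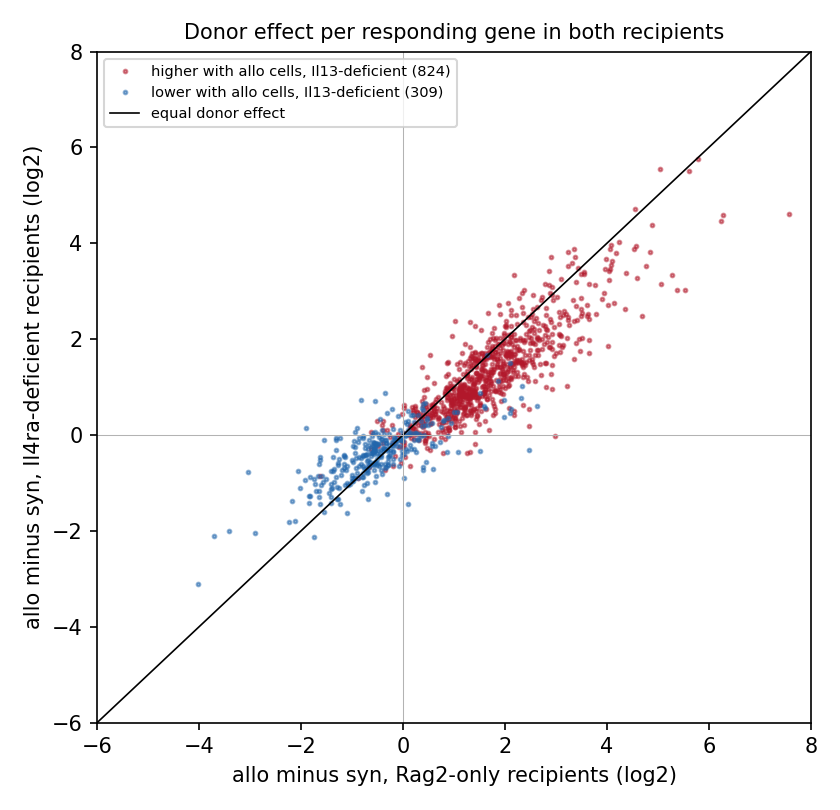
Donor effect (allo minus syn, log2) in Il4ra-deficient recipients, on the vertical axis, against that in Rag2-only recipients, for the 824 genes higher and the 309 genes lower with allo cells in Il13-deficient recipients; the line marks equal effects. Of the 824 genes, 643 lie below the line.

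Genes that fell with allo cells in the Il13-deficient mice had a smaller median change. Over these 309 genes the median donor effect was -0.36 in Il4ra-deficient and -0.54 in Rag2-only recipients, and the median change was 0.10, with 40.1% of genes below 0. It was 0.01 without mouse 5704 and turned to -0.014 with exact 0 kept as a value. The median level over 225 of them was -0.05 ± 0.05 (SD, n = 4) in allo Il4ra-deficient mice and -0.21 ± 0.23 (SD, n = 5) in allo Rag2-only mice, and the 2 groups overlapped. The syn Il13-deficient mice 6229 and 6234 had been seen to stand apart from the series. Chosen without them, the genes that fell gave a median change of 0.28 and those that rose -0.42.

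Among genes measured in all 16 mice, the 12 of smallest unadjusted p and a change below 0 were Ccrl2, Plaur, Ltb, Pla2g7, Lrmda, Clec4d, Fstl1, Creg1, Calhm6, Lta, Cybb and Id2. With allo cells 6 of the 12 rose in Il4ra-deficient recipients (5.91% of all genes did) and all 12 in Rag2-only recipients (12.6%), and none passed for the change itself (limma adjusted p = 0.743 for each). For all 12, every allo Il4ra-deficient mouse lay below every allo Rag2-only mouse (5.07% of all genes), and for 11 the difference among allo mice was larger in size than that among syn mice. Because they were picked by the p of this comparison, their changes and these counts are a description, and estimates picked in this way tend to be too large.

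RefSeq promoters (build GRCm38.p6, 250 bases before to 50 after each start) were found for all 12 of these genes, 14 windows in all, and they are shown for the 4 that held a STAT-type motif because Il4ra signals through Stat6. The motifs searched on both strands were TTCNNNNGAA, the spacing bound by Stat6, TTCNNNGAA, the spacing bound by other STAT factors, and the NF-kB consensus. The first was found for 2 of the 12 genes, the second for 3 and the NF-kB consensus for 3, with a gene counted if any of its windows matched. Of 32851 single promoters, 6.95%, 8.3% and 8.46% held them. Genes and single promoters are unlike units, and enrichment was not tested. The promoters of Saa3 and Cd3g, searched as well, held no match to any of these motifs. Ltb (chr17:35194257-35194556, plus strand) and Lta (chr17:35205302-35205601, minus strand) are neighbours on chromosome 17, Pla2g7 lies at chr17:43568201-43568500 (plus strand) and Calhm6 at chr10:34127923-34128222 (minus strand). Capitals mark the matches, which do not overlap one another; the second match in Ltb is the NF-kB consensus, the match in Calhm6 and the second in Lta have the Stat6 spacing, and the others have the shorter spacing. A match describes letters only and shows no binding.
Ltb: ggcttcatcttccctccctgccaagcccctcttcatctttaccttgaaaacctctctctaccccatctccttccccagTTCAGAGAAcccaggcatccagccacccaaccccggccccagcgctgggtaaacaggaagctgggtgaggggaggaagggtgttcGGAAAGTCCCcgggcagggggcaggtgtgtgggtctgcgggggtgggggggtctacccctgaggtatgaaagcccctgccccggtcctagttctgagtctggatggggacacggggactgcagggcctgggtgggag
Lta: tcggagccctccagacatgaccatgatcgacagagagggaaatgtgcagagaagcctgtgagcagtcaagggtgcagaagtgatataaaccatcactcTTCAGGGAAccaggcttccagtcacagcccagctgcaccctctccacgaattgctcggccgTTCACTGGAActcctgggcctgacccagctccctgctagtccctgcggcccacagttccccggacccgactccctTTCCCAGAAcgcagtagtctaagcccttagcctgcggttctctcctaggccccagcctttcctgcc
Pla2g7: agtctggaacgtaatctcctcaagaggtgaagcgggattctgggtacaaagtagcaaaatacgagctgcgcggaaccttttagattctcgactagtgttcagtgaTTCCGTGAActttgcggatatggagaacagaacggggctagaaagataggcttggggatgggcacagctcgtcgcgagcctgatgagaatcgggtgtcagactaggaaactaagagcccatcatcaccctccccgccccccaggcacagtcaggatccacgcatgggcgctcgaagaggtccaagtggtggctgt
Calhm6: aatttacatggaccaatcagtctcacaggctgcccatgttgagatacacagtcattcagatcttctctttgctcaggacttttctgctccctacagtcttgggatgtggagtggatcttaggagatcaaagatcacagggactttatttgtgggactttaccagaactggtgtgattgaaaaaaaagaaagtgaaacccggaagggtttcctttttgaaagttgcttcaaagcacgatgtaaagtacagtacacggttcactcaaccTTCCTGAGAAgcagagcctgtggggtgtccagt

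Clec4d and Ccrl2 had the largest estimates of the 12. Clec4d, a C-type lectin receptor of myeloid cells, stood at -0.43, -0.72, -0.70 and -0.86 in allo and at -3.40, -3.41 and -4.27 in syn Il4ra-deficient mice. In Rag2-only recipients it stood at 1.44, 2.20, 1.32, 0.78 and 1.92 with allo cells and at -3.49, -4.09, -3.68 and -4.10 with syn cells. The allo groups did not overlap, and the syn groups did. Its donor effect was 3.02 in Il4ra-deficient and 5.37 in Rag2-only recipients, 8.08-fold and 41.4-fold, a change of -2.36 (SE 0.61, 95% interval -3.63 to -1.08). Ccrl2, an atypical receptor that binds chemerin, stood at 1.18, 1.37, 0.51 and 0.87 in allo Il4ra-deficient mice, against 2.98, 3.19, 3.01, 2.60 and 3.23 in allo Rag2-only mice. In syn mice it ran from -0.11 to 0.26 in Il4ra-deficient and from -0.31 to 0.55 in Rag2-only recipients. Its donor effect of 0.96 in Il4ra-deficient recipients did not pass (limma adjusted p = 0.0843), that of 2.93 in Rag2-only recipients did, and the change was -1.97 (SE 0.46, 95% interval -2.92 to -1.02).

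Both lymphotoxin genes on the list were lower in every allo Il4ra-deficient mouse than in any allo Rag2-only mouse. Ltb, which encodes lymphotoxin beta of lymphocytes, stood at 0.15, 0.20, 0.05 and 0.10 in allo Il4ra-deficient mice, against 1.78, 2.03, 1.60, 1.56 and 1.38 in allo Rag2-only mice. Syn mice ran from -1.79 to -1.08 in Il4ra-deficient and from -2.06 to -1.41 in Rag2-only recipients. Its change was -1.77 (SE 0.45, 95% interval -2.69 to -0.84). Lta, its partner in the membrane-bound lymphotoxin trimer, stood at 0.19, 1.27, 0.93 and 1.08 in allo Il4ra-deficient mice and between 1.77 and 2.35 in allo Rag2-only mice, with a change of -1.08 (SE 0.29). Ltb rose in Il4ra-deficient recipients by 1.58 (limma adjusted p = 0.00453), while the Lta difference of 0.55 there did not pass (limma adjusted p = 0.115).

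Among genes of phagocytes, Plaur, the urokinase receptor, stood at -0.18, -0.43, -0.18 and -0.16 in allo Il4ra-deficient mice, against 1.17, 1.20, 1.44, 0.74 and 1.18 in allo Rag2-only mice. Its syn levels ran from -2.44 to -1.90 in Il4ra-deficient and from -2.40 to -2.16 in Rag2-only recipients, and its change was -1.46 (SE 0.35, 95% interval -2.19 to -0.72). Pla2g7, which encodes a secreted enzyme that inactivates platelet-activating factor, rose by 1.99 in Il4ra-deficient and by 3.65 in Rag2-only recipients (change -1.66, SE 0.42). Cybb, the catalytic subunit of the phagocyte NADPH oxidase, rose by 2.76 in Il4ra-deficient and by 4.15 in Rag2-only recipients (change -1.39, SE 0.37). It is the exception to the allo pattern, since its syn levels were higher in Il4ra-deficient (1.41 to 1.62) than in Rag2-only recipients (0.30 to 1.16), a difference of 0.75 that did not pass. Calhm6, of a family of ion channels, rose by 3.14 in Il4ra-deficient and by 5.07 in Rag2-only recipients (change -1.92, SE 0.50).

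Of the remaining genes, Id2, a regulator that blocks helix-loop-helix factors, had a change of -1.02, Fstl1, a secreted glycoprotein of mesenchymal cells, of -1.0, Creg1 of -0.91 and Lrmda of -0.89. None of these 4 passed with allo cells in Il4ra-deficient recipients, and in Rag2-only recipients they rose by 1.52, 0.65, 1.33 and 0.81. Among allo mice, 7 of the 12 fell in Il4ra-deficient relative to Rag2-only recipients (limma adjusted p = 0.00901 for Ccrl2, the smallest), against 0.534% of all genes. The 12 were picked by a comparison that contains this allo difference, so the count is a description and gives no support. None of the 7 passed with the number series as a block.

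**Figure D3:**
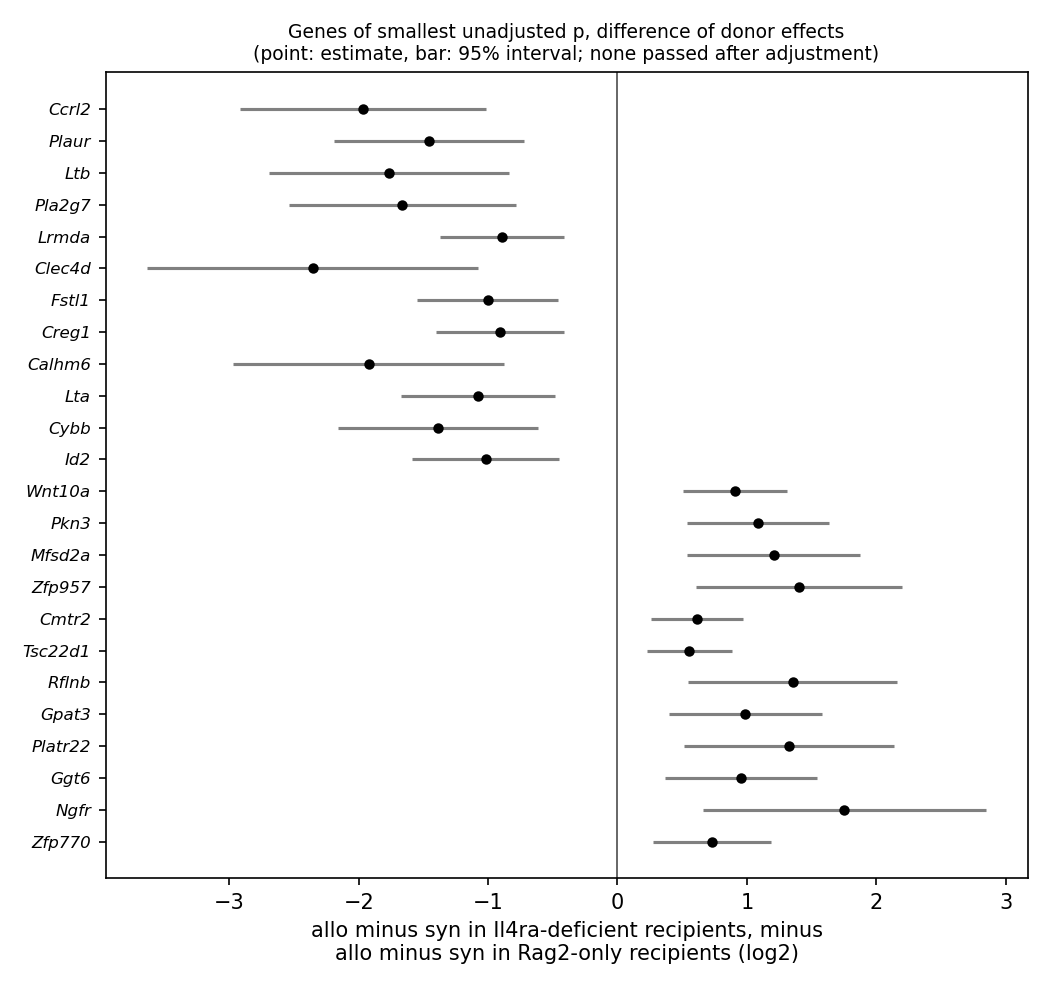
Change of the donor effect (log2) with its 95% interval for the 12 genes of smallest unadjusted p in each direction. None passed after adjustment over 14783 genes; the estimates run from -2.36 for Clec4d to 1.75 for Ngfr.

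At the higher end, the 12 genes chosen in the same way were Wnt10a, Pkn3, Mfsd2a, Zfp957, Cmtr2, Tsc22d1, Rflnb, Gpat3, Platr22, Ggt6, Ngfr and Zfp770, with limma adjusted p from 0.743 to 0.836. For 7 of them the difference among allo mice was larger in size than that among syn mice, and for 5 (Pkn3, Mfsd2a, Zfp957, Platr22 and Ngfr) it was the reverse. The donor effect passed in Il4ra-deficient recipients for 4 of the 12 (9.21% of all genes) and in Rag2-only recipients for 9 (28.2% of all genes). These counts too are a description, since the genes were picked by the p of this comparison.

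Wnt10a, a Wnt ligand of epidermis and hair follicles, had the smallest unadjusted p of the genes measured in all 16 mice (0.000128). It stood at 1.06, 1.10, 1.20 and 0.94 in allo and at 0.25, -0.19 and 0.10 in syn Il4ra-deficient mice, against 0.46, 0.52, 0.42, 0.57 and 0.31 in allo and 0.28, 0.55, 0.40 and 0.11 in syn Rag2-only mice. It rose with allo cells in Il4ra-deficient recipients by 1.02 (limma adjusted p = 7.4e-05), and the difference in Rag2-only recipients was 0.12 (limma adjusted p = 0.525), which gave a change of 0.90 (SE 0.19, 95% interval 0.50 to 1.31). Gpat3, an acyltransferase of triglyceride synthesis, stood at 2.13, 1.93, 1.78 and 2.21 in allo Il4ra-deficient mice, against 1.04, 0.74, 0.96, 0.44 and 1.34 in allo Rag2-only mice. In syn mice it ran from 2.27 to 2.62 in Il4ra-deficient and from 1.90 to 2.89 in Rag2-only recipients. The difference of -0.43 with allo cells in Il4ra-deficient recipients did not pass (limma adjusted p = 0.215), and it fell in Rag2-only recipients by 1.42.

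For the 5 genes with the larger difference among syn mice, the syn Il4ra-deficient mean was below the syn Rag2-only mean. Mfsd2a, a transporter of lysophospholipids, stood at 2.55, 2.13 and 1.54 in syn Il4ra-deficient mice, against 3.74, 3.45, 3.57 and 2.93 in syn Rag2-only mice. Its allo levels were 1.95, 2.17, 1.92 and 1.82 in Il4ra-deficient and 1.82, 1.84, 2.12, 2.32 and 2.44 in Rag2-only recipients, which overlapped. Ngfr, the p75 neurotrophin receptor, stood at 1.85, 1.00 and 1.91 in syn Il4ra-deficient mice, against 2.54, 2.73, 2.32 and 4.17 in syn Rag2-only mice, and its change was 1.75 (SE 0.53). Other probes of Ngfr, Pkn3 and Zfp770 had changes of the opposite sign (lowest -0.69, -0.47 and -0.32), so these 3 genes are uncertain.

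The T cell genes that could be fitted had smaller estimated donor effects in Il4ra-deficient recipients. All 14 of these, of 20 on the list, had a change below 0, with a median of -0.98 (all genes 0.02). At an unadjusted p under 0.05, 8 were lower, against 2.54% of all genes, and none passed after adjustment. Cd247, a member left out of the fit, had 2 probes with changes above 0 (0.06 and 0.40). The median donor effect was 1.59 in Il4ra-deficient recipients, where 11 of the 14 rose (5.91% of all genes did), and 2.74 in Rag2-only recipients, where 13 rose (12.6%). Over 11 T cell genes measured in all 16 mice, the median level was 0.16, -0.07, 0.10 and -0.17 in allo Il4ra-deficient mice, against 1.08, 1.50, 1.05, 0.72 and 0.76 in allo Rag2-only mice. Syn mice ran from -1.75 to -0.54 in Il4ra-deficient and from -1.76 to -0.80 in Rag2-only recipients.

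Cd3g, a chain of the T cell receptor complex, stood at -0.38, -0.54, -0.54 and -0.52 in allo and -2.30, -2.08 and -3.15 in syn Il4ra-deficient mice. In Rag2-only recipients it stood at 1.46, 1.50, 1.05, 0.72 and 0.87 with allo and at -2.61, -2.72, -2.46 and -1.73 with syn cells. It rose by 2.02 in Il4ra-deficient and by 3.50 in Rag2-only recipients, a change of -1.48 (SE 0.43, 95% interval -2.37 to -0.60). The adhesion receptor Cd2 (change -1.29), the signalling adaptor Lat (-1.22) and the surface receptor Cd6 (-1.25, with a second probe at 0.04) were the other members of smallest p. Cd3g, Lat, Cd2 and Cd6 fell among allo mice in Il4ra-deficient relative to Rag2-only recipients (limma adjusted p = 0.0161 to 0.0252), against 0.534% of all genes. These 4 were picked by a comparison that contains this allo difference, so their calls are a description and give no support.

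Interferon gamma reached overlapping levels in both recipients. Ifng, the main cytokine of type 1 T cells and of NK cells, stood at 3.92, 4.05, 2.93 and 3.96 in allo Il4ra-deficient mice, against 3.88, 4.21, 4.31, 3.67 and 4.37 in allo Rag2-only mice, and the groups overlapped. It rose by 3.68 in Il4ra-deficient and by 3.97 in Rag2-only recipients, and the change of -0.30 had a 95% interval of -0.96 to 0.36. Ccl5, a chemokine of cytotoxic lymphocytes, stood at 1.91, 1.74, 1.54 and 2.11 in allo Il4ra-deficient mice, against 3.42, 4.0, 3.15, 2.90 and 3.78 in allo Rag2-only mice. It rose by 4.46 in Il4ra-deficient and by 6.24 in Rag2-only recipients, with a change of -1.78 (SE 0.57). Only 5 of 15 cytotoxic and NK cell genes could be fitted, and all 5 lay below 0 (median -0.76), among them Fasl (-1.25) and Cst7 (-0.76).

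Nearly all genes induced by interferons rose in both recipients. Of 28 interferon-gamma response genes, 27 rose in Il4ra-deficient (5.91% of all genes) and 28 in Rag2-only recipients (12.6%), with median donor effects of 3.01 and 2.83 and a median change of 0.11. That median ran from -0.0011 (without 4534) to 0.20 (without 4535). Of 26 type I interferon genes, 25 and 26 rose, with medians of 2.41 and 2.05 and a median change of 0.18, which ran from 0.08 (without 5700) to 0.35 (without 5702) and was -0.05 within series 57. The list medians per allo mouse ran from 3.04 to 3.80 in Il4ra-deficient and from 3.60 to 4.17 in Rag2-only recipients for the first list, and from 2.04 to 2.29 and from 1.83 to 2.58 for the second. Both ranges overlapped. Within the first list Cd274, the ligand of PD-1, had a change of -1.0 (95% interval -1.81 to -0.20), the adhesion molecule Icam1 of -0.95 (-1.73 to -0.16) and the ubiquitin-like Ubd of 1.17 (0.13 to 2.21). The type I genes of smallest p were Irf9 (0.56), Oasl2 (0.82, a second probe at -1.0) and Oas1a (0.64), all with intervals that include 0.

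Chemokines of monocytes rose in both recipients. Ccl2, the monocyte attractant named in the title of the study, stood at -0.47, -0.46, -1.11 and -0.84 in allo and at -3.74, -3.45 and -3.46 in syn Il4ra-deficient mice. In Rag2-only recipients it stood at 0.60, 0.86, 0.61, 0.19 and 1.14 with allo and at -3.10, -3.26, -3.34 and -3.15 with syn cells. The allo groups did not overlap. Ccl2 rose 7.11-fold in Il4ra-deficient and 14.9-fold in Rag2-only recipients, a change of -1.06 (SE 0.45, 95% interval -2.01 to -0.12, limma adjusted p = 0.993). Its close relatives Ccl7 and Ccl12 rose by 3.81 and 2.82 in Il4ra-deficient and by 4.18 and 3.33 in Rag2-only recipients, with changes of -0.38 (95% interval -1.51 to 0.75) and -0.50 (-2.05 to 1.05). Over 17 of 20 CC chemokines the median change was -0.38, with 11 below 0 and 2, Ccl2 and Ccl5, lower at an unadjusted p under 0.05 (2.54% of all genes). The direction of that median turned within series 57, where it was 0.22 over the same 17 genes. It was -0.08 without mouse 4535, -0.19 without 5700 or 5718, -0.21 without 6154 and -0.24 without 5702.

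Among CXC chemokines, the neutrophil attractants Cxcl5 (-2.84, 95% interval -5.86 to 0.19) and Cxcl1 (-1.69, -3.72 to 0.33) had large changes with wide intervals. Cxcl12, a chemokine of stromal cells, had a change of -0.60, the mean of 2 probes that disagreed (-1.30 and 0.11). It fell among allo mice in Il4ra-deficient relative to Rag2-only recipients by 0.69 (limma adjusted p = 0.0193). Cxcl12 too was picked by a comparison that contains this allo difference. The median over 12 of 14 CXC chemokines was -0.13, with 8 below 0, and ran from -0.37 (without 5703 or 5719) to -0.06 (without 4533).

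Of 26 macrophage and monocyte genes, 17 rose in Il4ra-deficient (5.91% of all genes) and 22 in Rag2-only recipients (12.6%), and their median change was -0.26, with 20 of 26 below 0 and values from -0.39 (without 5717) to -0.15 (without 4535) when single mice were left out. It was -0.08 within series 57. Cd14, the co-receptor for bacterial lipopolysaccharide, stood at -1.31, -1.75, -1.64 and -1.77 in allo Il4ra-deficient mice, against 0.20, 1.05, 0.21, -0.23 and 0.35 in allo Rag2-only mice. Its difference with allo cells was 1.00 in Il4ra-deficient recipients, which did not pass, and it rose by 2.81 in Rag2-only recipients, a change of -1.81 (SE 0.61). The transcription factor Spi1 (-2.27, SE 0.94) and the fungal receptor Clec7a (-1.02, SE 0.55) were the other members of smallest p beside Cybb. Dendritic and Langerhans cell genes had a median change of -0.27 (7 of 10 below 0), which was -0.06 without 5719 and -0.08 within series 57. Genes of MHC class II presentation had 0.04 (4 of 10 below 0), with values from -0.19 (without 5717) to 0.33 (without 6153), and 0.75 within series 57.

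Neutrophil and acute-phase genes had medians further below 0. Of 16 neutrophil genes only 8 could be fitted, 7 of them below 0, with a median of -1.19, and Clec4e, a relative of Clec4d on the same list, had -1.71. Lcn2, an iron-binding antimicrobial protein, had -2.19, and S100a8, a subunit of calprotectin that stressed keratinocytes also make, had -2.36 with an interval of -4.96 to 0.25. The defining neutrophil genes Ly6g, Csf3r and Cxcr2 could not be fitted, and Clec4d, Clec4e and Lcn2 are also made by other cells. The list median per mouse ran from -0.80 to -0.48 in allo and from -1.85 to -1.56 in syn Il4ra-deficient mice, against 0.83 to 1.89 in allo and -1.55 to -1.33 in syn Rag2-only mice. The median change was -1.81 without mouse 4533, -1.93 without 4535 and -1.83 without 6152.

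Saa3, a serum amyloid A made by macrophages and epithelia, had a large donor effect in both recipients. It stood at 1.23, 0.63, 1.02 and 0.82 in allo and at -2.70, -4.14 and -4.23 in syn Il4ra-deficient mice. In Rag2-only recipients it stood at 3.42, 4.32, 3.53, 2.60 and 4.0 with allo and at -3.95, -4.25, -4.05 and -3.74 with syn cells. It rose 24.4-fold in Il4ra-deficient and 190-fold in Rag2-only recipients, a change of -2.96 (SE 0.80, 95% interval -4.63 to -1.30). Saa1 stood at 1.35, 0.98, 1.35 and 1.06 in allo Il4ra-deficient mice, against 3.19, 4.58, 3.29, 2.66 and 3.54 in allo Rag2-only mice, with a change of -2.52, while a second probe gave 0.45. Ptgs2, the inducible cyclooxygenase, had a change of -1.60 (SE 0.68). Over 16 of 23 acute-phase and inflammation genes the median change was -0.58, with 12 below 0 and 6 lower at an unadjusted p under 0.05 (2.54% of all genes), and it was -1.09 without mouse 4535 and -1.22 without 5719.

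**Figure D4:**
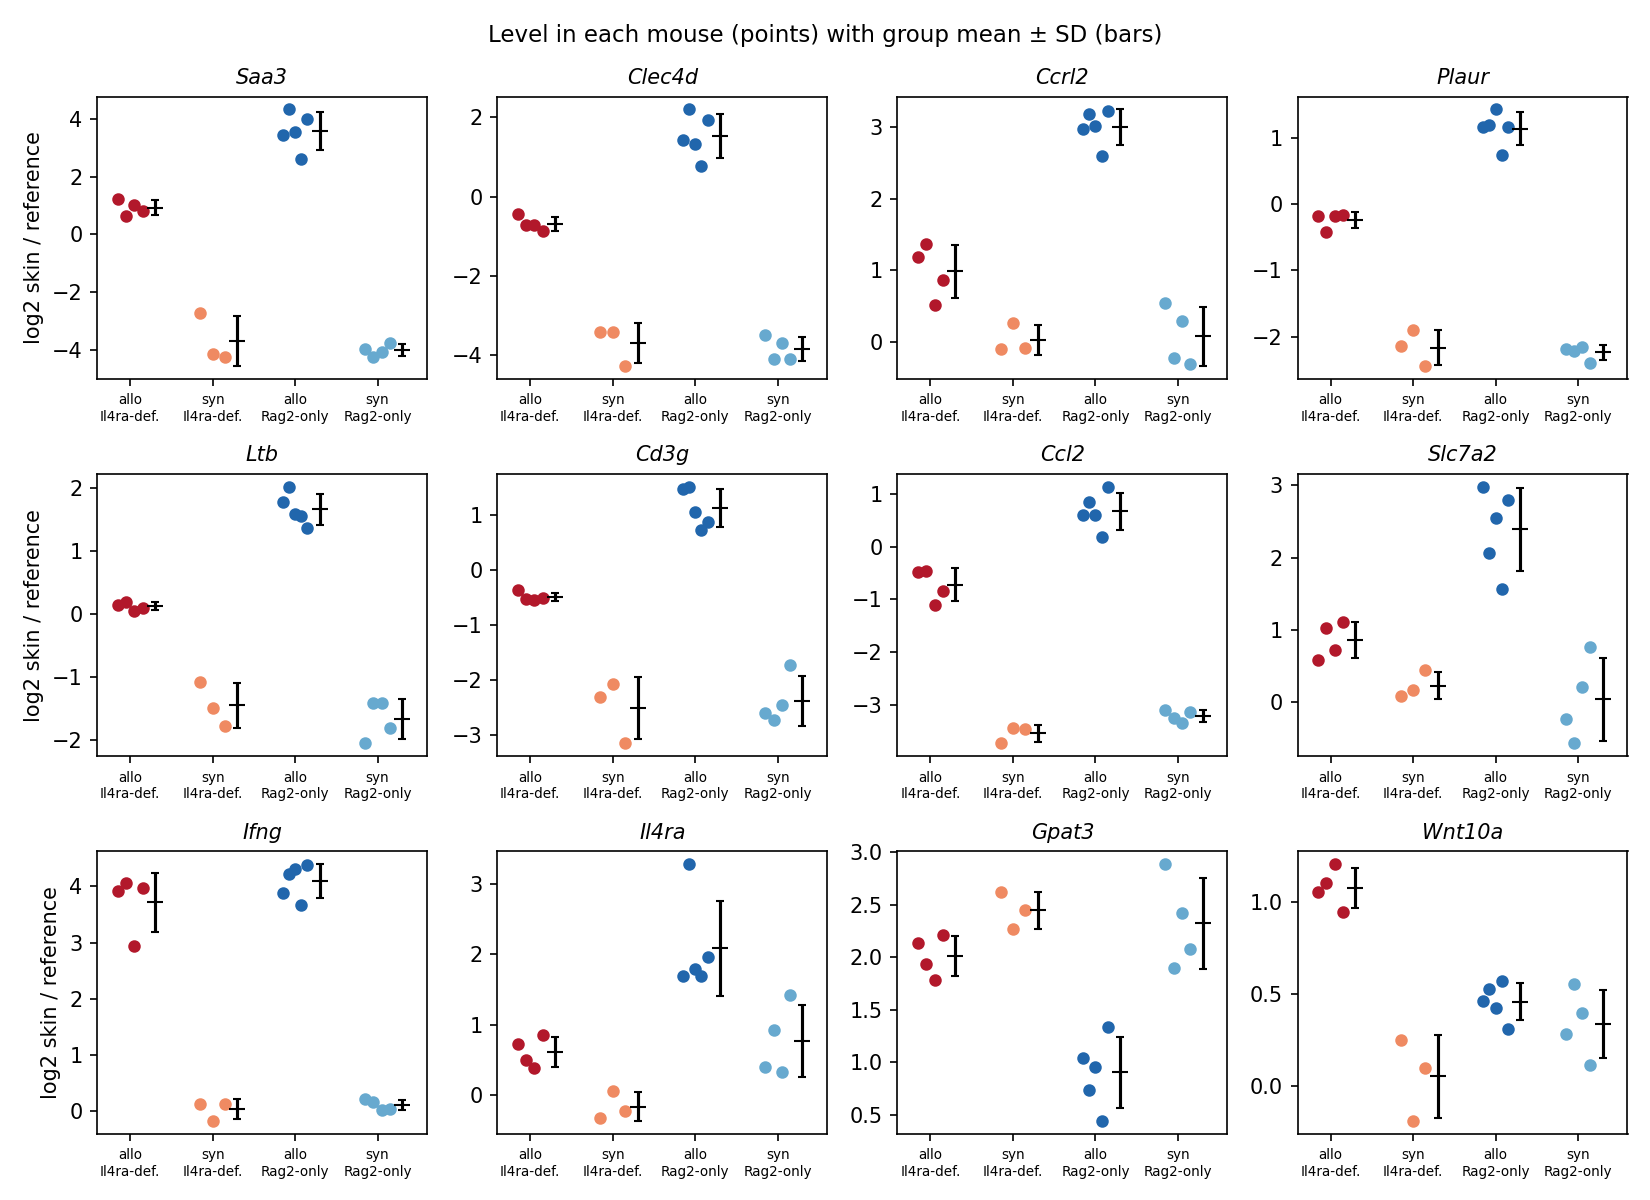
Log2 ratio of skin to reference in each mouse for 12 genes, with bars for the group mean ± SD. For Saa3, Clec4d, Ccrl2, Plaur, Ltb, Cd3g, Ccl2, Slc7a2 and Il4ra every allo Il4ra-deficient mouse lies below every allo Rag2-only mouse, for Gpat3 and Wnt10a every one lies above, and for Ifng the groups overlap.

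Genes known to be induced by IL-4 or IL-13 lay on both sides of 0. Over 25 of 32 such genes the median change was 0.14, with 15 above and 10 below 0. It turned to -0.05 without mouse 5719 and was 0.02 without 5704, 0.09 without 5720 and 0.22 without 5700 or 6151. The median donor effect was 0.36 in Il4ra-deficient and 0.23 in Rag2-only recipients. The member with the smallest p was Slc7a2, an arginine transporter of macrophages, at 0.58, 1.02, 0.73 and 1.12 in allo Il4ra-deficient mice, against 2.98, 2.06, 2.54, 1.57 and 2.80 in allo Rag2-only mice. The difference of 0.63 with allo cells in Il4ra-deficient recipients did not pass, it rose in Rag2-only recipients by 2.35, and the change was -1.72 (SE 0.46, 95% interval -2.68 to -0.75). Chil3, a chitinase-like protein of alternatively activated macrophages, stood at -3.40, -3.80, -3.32 and -2.56 in allo Il4ra-deficient mice, against -0.66, -1.59, -0.10, -3.53 and -2.49 in allo Rag2-only mice, and its change of -1.62 had a 95% interval of -3.91 to 0.67. Arginase Arg1 (0.44), Retnla (0.63) and the mannose receptor Mrc1 (-0.24) had intervals from -0.71 to 1.59, from -0.42 to 1.69 and from -1.93 to 1.45. The eosinophil attractant Ccl11 had -1.16 (-2.46 to 0.15), Ccl24 had 0.05 (-1.09 to 1.19), Ccl8 had 0.34 (-0.40 to 1.07), and Ccl17, which attracts T cells bearing Ccr4, had -0.01 (-1.28 to 1.27). Cish, a feedback inhibitor of cytokine signalling, had 0.84 (0.23 to 1.45). Ccl22 could not be fitted.

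In the signalling chain itself the median change over 16 of 22 genes was -0.28, with 11 below 0, and -0.16 without mouse 5704. Il4 had a change of -0.06 (95% interval -0.56 to 0.44), Il13 of -0.21 (-1.29 to 0.87), Il13ra1 of -0.05 (-0.87 to 0.77) and Stat6 of 0.08 (-0.34 to 0.50). Rag2, absent from all recipients, had 0.14 (-0.17 to 0.45), and Il13ra2 could not be fitted. Gfi1, a repressor used by type 2 helper and innate lymphoid cells and by neutrophil precursors, had -1.34 (SE 0.43), Jak3, a kinase of the common gamma chain, had -0.61 and Crlf2, a chain of the TSLP receptor, had -0.43. Il17rb, a chain of the IL-25 receptor, had 1.04 (0.02 to 2.07).

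The medians of the matrix lists lay near 0, with members on both sides. Over 23 collagen and matrix genes the median change was 0.19, over 23 fibrosis activation genes -0.12 and over 18 TGF-beta targets 0.00. Within series 57 these medians were 0.48, -0.18 and -0.08. Members ran from -0.81 to 0.79 in the first list and from -1.59 to 0.76 in the second. The fibrosis median turned sign without 4535 or 5718 (0.13 each), 5702 (0.07), 5701 (0.02) or 6154 (0.01) and was lowest without 6151 (-0.26), and the collagen median was 0.10 without 5704. Col1a1, the main chain of type I collagen, had -0.02 (95% interval -0.98 to 0.93), but its 3 probes disagreed in sign (-0.67 to 0.42). Tgfb1 had -0.47 (-1.30 to 0.35), having risen by 1.13 in Il4ra-deficient and by 1.60 in Rag2-only recipients. Members of smallest p were Col5a1 (0.79) and the proteoglycan Bgn (-0.81), each with probes of opposite sign, Thbs1 (-0.79), the growth factor Pdgfb (0.76), the activin chain Inhba (-1.15), and the proteases Mmp3 (-1.59) and Mmp14 (-0.74). Inhba fell among allo mice in Il4ra-deficient relative to Rag2-only recipients by 1.39 (limma adjusted p = 0.0435), and it was picked by a comparison that contains this difference.

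Epidermal, fat and muscle genes had medians above 0. The median change was 0.44 over 28 keratinocyte differentiation genes (23 above 0), 0.40 over 14 basal keratinocyte genes (12 above 0), 0.47 over 16 adipocyte genes (13 above 0), 0.44 over 26 skeletal muscle genes (23 above 0) and 0.33 over 17 sebaceous and lipid genes (13 above 0). With allo cells, 1 keratinocyte differentiation, 0 basal, 1 adipocyte, 0 muscle and 1 sebaceous gene fell in Il4ra-deficient recipients, against 13, 4, 12, 13 and 6 in Rag2-only recipients. Of all genes 3.31% fell in Il4ra-deficient and 15.6% in Rag2-only recipients. Single mice moved the adipocyte median to 0.70 (without 4535), the muscle median to 0.73 (without 4535) or 0.21 (without 5719), the basal median to 0.22 (without 5719), and the sebaceous median to 0.15 (without 5719) or 0.19 (without 5704). Gpd1, a glycerol phosphate enzyme of fat cells, stood at 4.42, 4.31, 4.41 and 4.38 in allo Il4ra-deficient mice, against 3.76, 3.63, 3.70, 3.89 and 3.75 in allo Rag2-only mice, with a change of 0.68 (95% interval 0.24 to 1.11) and a second probe at -0.16. Fasn, the fatty acid synthase, stood at 1.61, 1.83, 2.24 and 2.98 in allo Il4ra-deficient mice, against 0.98, 0.39, 0.78, 0.84 and 1.17 in allo Rag2-only mice, and fell by 1.10 in Il4ra-deficient and by 2.02 in Rag2-only recipients. The lipid regulators Srebf1 (0.48) and Cidec (0.79), the muscle genes Pvalb (1.10) and Tcap (0.59), and the cornified envelope gene Lce1d (0.66) were further members of smallest p. Dsc1, an adhesion protein of upper epidermis, stood against its list with a change of -2.13 (SE 0.54). It could be fitted in only 14 of the 16 settings that left out a mouse. Its donor effect in Il4ra-deficient recipients passed, but not with exact 0 kept as a value (limma adjusted p = 0.838).

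Hair genes differed between single mice. The median change over 21 of 35 hair genes was -0.69, with 18 below 0. Over 8 of them measured in all 16 mice, mice 5701 and 6152 of the allo Rag2-only group had medians of 3.03 and 1.00, and the other mice of the 4 groups ran from -0.51 to 0.24. The median change of the list was -0.06 without mouse 5701, -1.27 without 4534 and -1.30 without 6154. Krtap16-3 (-2.77) and Krt35 (-2.03) were the members of smallest p, both with intervals that include 0. The part of hair growth in the other results was not tested.

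Stressed keratinocyte genes, which are induced in inflamed epidermis, had a median change of -0.68 over 20 members, with 15 below 0. Within series 57 it was -0.30. Slpi had -1.13 and Defb3 had 1.71. The median was -0.34 without mouse 5704, whose level of this list (3.37) was the highest of the 16 mice, -0.35 without 5719 and -0.41 without 4533. Immediate-early genes, which also respond to tissue handling, had a median of -0.30 over 21 members. Fos stood at -2.65, -2.48, -1.60 and -2.21 in allo Il4ra-deficient mice, against -0.52, 0.02, -0.69, -0.51 and -0.19 in allo Rag2-only mice, with a change of -1.86 (SE 0.62), and Egr1 had -1.02 and Junb -0.61. The Fos groups did not overlap among allo mice, and the part of handling in these results was not tested.

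Most of the remaining lists lay nearer to the median of all genes. The median change over 17 endothelial genes was 0.05 and ran from -0.34 (without 5717) to 0.21 (without 5719). Among them Vcam1 had -0.80 and Cldn5 1.23 (-0.19 with exact 0 kept as a value). Median changes were 0.03 over 13 smooth muscle and pericyte genes (0.36 within series 57) and 0.01 over 28 cell division genes (-0.29 within series 57). In the former list Cspg4 had 0.70. The median change was -0.20 over 13 complement genes (0.18 within series 57), where C1ra had -0.74 and C1s1 -0.82. It was 0.00 over 10 mast cell genes (0.51 within series 57), where Tpsab1 had -1.18, and 0.29 over 9 B and plasma cell genes. Mitochondrial genes had 0.15 over 30 members and ribosomal protein genes -0.01 over 18. Pigment cell and nerve genes had 0.19 over 9 members, and -0.003 within series 57. Pmel, a melanosome protein, stood at 0.60, 0.63 and 1.71 in syn Il4ra-deficient mice, against 2.58, 2.11, 2.56 and 3.53 in syn Rag2-only mice, and its change was 2.05 (SE 0.53). Eosinophil genes, with 2 fitted members, and red blood cell genes, with 3, were too few to describe.

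**Figure D5:**
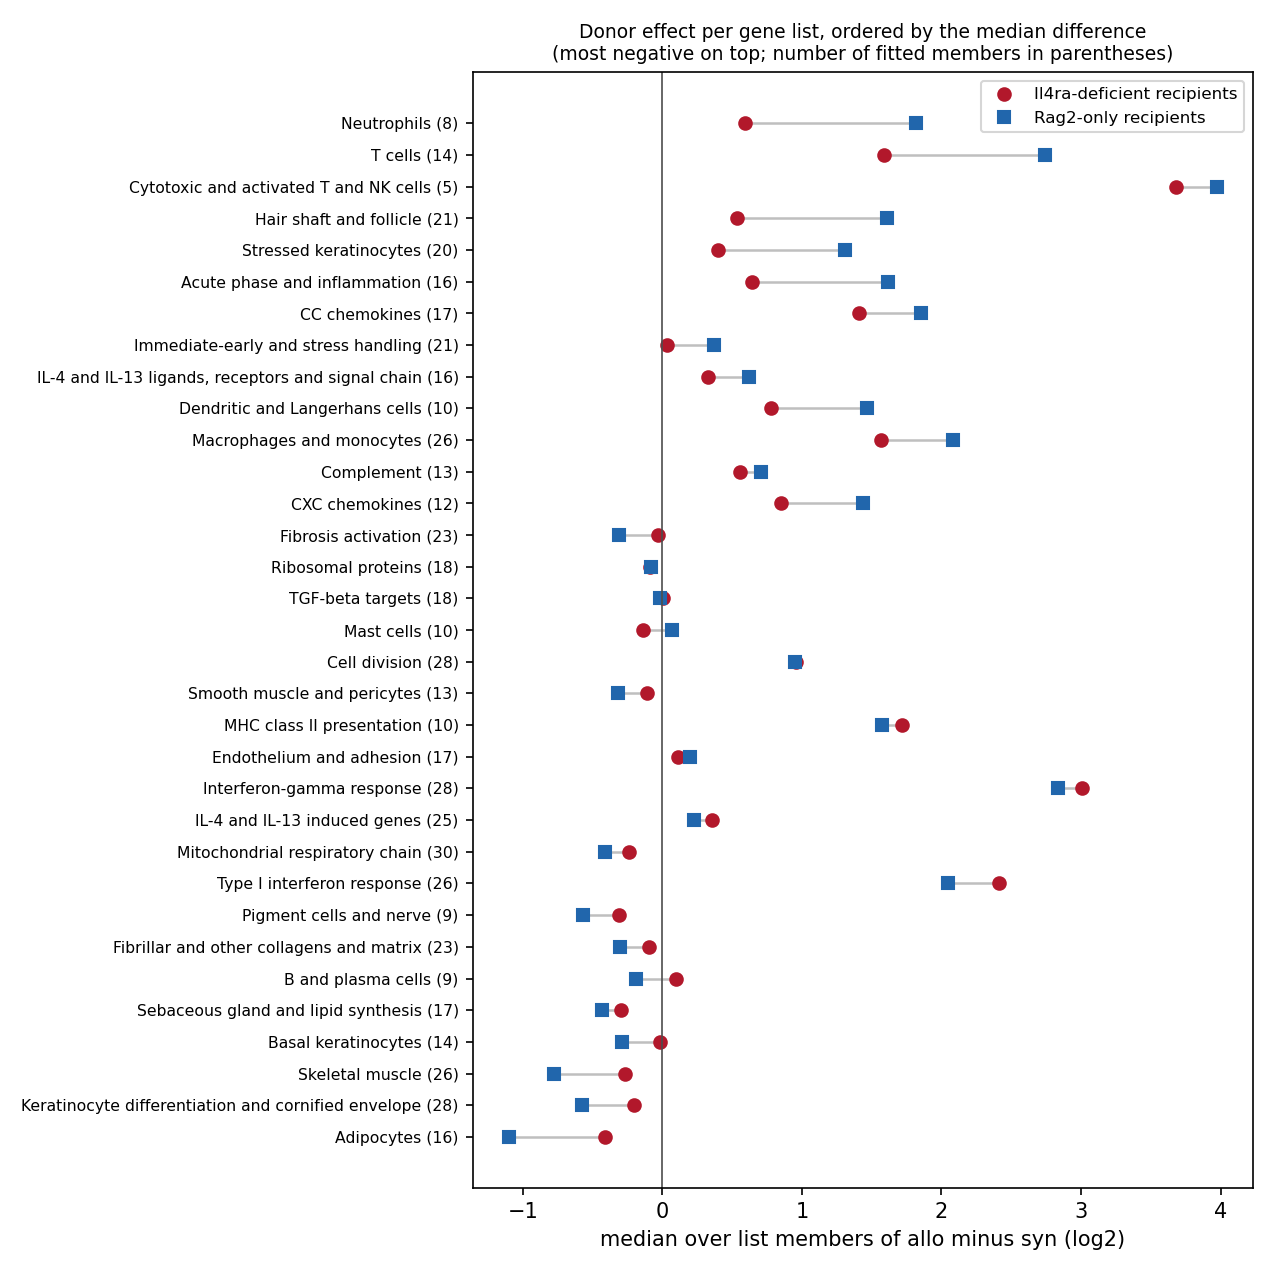
Median donor effect (allo minus syn, log2) of each gene list with at least 5 fitted members, in Il4ra-deficient (circles) and Rag2-only recipients (squares), ordered by the median change. Neutrophil, T cell and acute-phase genes show the smaller effect in Il4ra-deficient recipients, interferon response genes lie close together, and adipocyte and skeletal muscle genes lie nearer to 0 in Il4ra-deficient recipients.

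Some list members had too few syn values to be fitted. Of these, 7 were measured in all 9 allo mice (Nkg7, Klrk1, Osm, Serpina3n, Stfa1, Stfa3 and Hoxc13), and all 7 had a lower mean in the allo Il4ra-deficient mice (49.1% of all genes tested). Klrk1, the activating receptor NKG2D of NK and T cells, averaged 1.05 ± 0.26 (SD, n = 4) in allo Il4ra-deficient and 2.23 ± 0.71 (SD, n = 5) in allo Rag2-only mice, and was the one of the 7 whose groups did not overlap (5.07% of all genes). Osm, a cytokine of myeloid and T cells, averaged 0.01 ± 0.93 (SD, n = 4) and 1.59 ± 0.66 (SD, n = 5) in these groups. The 7 genes entered through values in every allo mouse and too few in syn mice. Both shares are over genes that could be fitted, which leave these 7 out, so the sets are unlike. No test was made for these genes, and their count gives no support. Outside the rules used to choose genes, Gm5415, a predicted gene singled out after its values were seen, had the smallest unadjusted p of all 14783 genes (5.49e-05) with values in only 11 of the 16 mice. It averaged -1.49 in allo (n = 2) and 0.49 in syn Il4ra-deficient mice (n = 2), against 0.15 in allo (n = 4) and 0.09 in syn Rag2-only mice (n = 3), and its change of -2.03 (SE 0.36) had a limma adjusted p of 0.743.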

How the data were processed

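Skin RNA (Cy3) was hybridised with a universal mouse reference RNA (Cy5) on 2-colour Agilent arrays, per the labels' protocols. The deposited table holds 1 log2 ratio per probe and array; its scanner settings, background correction and normalization are not stated in the labels. Its log base and direction (reference over skin) were read from the values, and the sign was turned, so ratios are skin over reference. Medians over the 28 arrays ran from -0.144 to 0.039 before turning. Exact 0 was treated as missing. Of 41174 probes, 32664 carried 1 gene name (19532 genes), and 45 with several names and 8465 with none were left out. Each gene's value is the mean of its most completely measured probes that share 1 pattern of missing mice. Its other probes did not enter that value. Arrays of a mouse were averaged.

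limma 3.58.1 (R 4.3.3) was fitted over all 6 groups, without covariates, to the 14783 genes that had values from 2 or more mice per group, with Benjamini-Hochberg adjustment over them; the steps were tested on simulated data. Means per mouse, medians and figures used Python 3.11.15. Mice are separate animals by number; the arrays have no read depth, and the number of mice limits the precision. Genes described were 22 fixed ones, the 12 of smallest p in each direction measured in all 16 mice (none passed after adjustment), and up to 4 of smallest p in each of the lists with at least 5 fitted members. The members and the 37 gene lists were chosen with earlier results of these data known. Promoters came from RefSeq (GRCm38.p6). Alternatives covered the handling of 0, array scaling, probe choice, missing values, the groups in the fit, the number series, and each mouse left out.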

Additional observations from a re-analysis of the deposited data

Results flagged for a closer look

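In 11 of 120 groups tested over 38 genes and the median levels, 1 mouse lay further from the others than Dixon's 95% limit; chance alone flags about 1 in 20 groups. All values are log2 ratios of skin to reference. In allo Il4ra-deficient mice, Plaur was lowest in mouse 4534, at -0.43 against -0.18 to -0.16 in the others. Id2 was lowest in 4533 of that group, at -0.30 against 0.15 to 0.19, and Cd3g was highest there, at -0.38 against -0.54 to -0.52. In mouse 5720 Pkn3 was low, at 0.10 against 0.68 to 0.73, and Rflnb was high, at 2.23 against 1.46 to 1.59. In mouse 5718, whose label reads IL14Ra, Ifng was low, at 2.93 against 3.92 to 4.05. In allo Rag2-only mice, Il4ra was highest in mouse 5704, at 3.27 against 1.69 to 1.97, and Zfp770 was highest in 6154, at -0.67 against -1.12 to -1.01. In syn Rag2-only mice, Pla2g7 was low in mouse 6153, at -1.15 against -0.71 to -0.63, Ggt6 was low in 5702, at 4.42 against 5.02 to 5.11, and Saa1 was high in 5700, at -1.85 against -2.19 to -2.14.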

How the results depend on the processing

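In 29 other settings, 16 of them leaving out 1 mouse each, 0 genes passed the limma test for a changed donor effect. With only the 4 groups in the fit and the same genes, an alternative chosen after seeing the data, 2 genes passed, both lower, Ltb and Plaur (adjusted p = 0.0499 each), so calls lie close to the threshold there. The count at an unadjusted p under 0.05 was 558 to 800 with a mouse left out, 1268 within number series 57, and 1241 (1222 over the same genes) with 4 groups. The median over genes higher in Il13-deficient recipients stayed below 0 in every setting, from -0.43 to -0.31 with a mouse left out, -0.47 fitted within series 57 alone (757 genes) and -0.25 for genes chosen at any fold. The median over genes lower there was 0.01 to 0.17 with a mouse left out, -0.014 with exact 0 kept and 0.28 chosen without mice 6229 and 6234.

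The count of genes called between allo recipients, 119 in the fit as reported, was 66 with exact 0 kept, 524 with 4 groups, 3 with the number series as a block, and 6 to 129 with a mouse left out: 6 without 5720, 12 without 5718, 19 without 5701, 24 without 4534 or 5704, 27 without 6151, 46 without 6154 and 56 without 4533. The count for the donor effect in Il4ra-deficient recipients (1362) was 880 with exact 0 kept, 2234 with 4 groups, 728 within series 57 and 601 to 1449 with a mouse left out, lowest without 5717, then 791 without 5718, 837 without 4533 and 851 without 4535. The cause was not tested.

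Some genes turned sign, most of them close to 0. With exact 0 kept, Stat6 was -0.086, H2-Aa -1.20 (0.97 with exact 0 left out) and Cldn5 -0.19 (1.23). Col1a1 was 0.010 with quantile normalization, 0.18 with the series block, 0.48 within series 57, 0.21 without shared values, 0.42 with 1 probe per gene, 0.059 with mouse as a random block and -0.22 to 0.27 with a mouse left out. Ccl17 was 0.012 with arrays centred, 0.0082 with a random block, 0.020 with first arrays, 0.72 within series 57 and -0.29 to 0.27 with a mouse left out. Il13ra1 was 0.0068 with quantile normalization, 6.5e-05 with the block, 0.27 within series 57, 0.057 with first arrays and -0.12 to 0.080 with a mouse left out. Stat6 was -0.017 with the block, -0.15 without shared values and -0.062 to 0.25 with a mouse left out. Ccl24 was -0.18 with the block, -0.013 with first arrays and -0.16 to 0.34 with a mouse left out, and Cdc20 was -0.080 within series 57. With a mouse left out Il13 ran from -0.38 to 0.12, Il4 from -0.13 to 0.076 and Mrc1 from -0.44 to 0.024. Genes with few measured mice could not be fitted in all 16 settings that left out a mouse. Il13, Rag2, Arg1, Mrc1, Spi1, Dsc1, Defb3 and Krtap16-3 were fitted in 14 of them, Krt35 in 12 and Tpsab1 in 10. No paired analysis was possible because no mouse number occurs in more than 1 group. Values not well above background could not be separated, since the table gives no background.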
